A study of Mus musculus with 12 samples.

Results

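Hdac3 -/- macrophages answered lipopolysaccharide (LPS) with a large part of the inflammatory program, but not with all of it. The cells were primary bone marrow-derived macrophages of C57BL/6 mice, grown with medium conditioned by L929 cells, which supplies the growth factor CSF1, and used on day 7 of differentiation. The response was read as 3 Hdac3 -/- arrays from cells given 100 ng/ml of LPS for 4 h against 3 Hdac3 -/- arrays from untreated cells, which are 6 of the 12 arrays of the study. The other 6 arrays come from Hdac3 +/- cells, 3 untreated and 3 given the same LPS, which the submitters label wild type although they carry a deleted allele. The same medium, strain and day hold for all 4 groups. How and in which cells the Hdac3 allele was deleted is not stated in the labels, and neither is whether replicates came from separate animals. The p-values therefore measure the spread between these arrays, which may be technical, wholly among -/- arrays and in part among +/- arrays. The +/- arrays had male and female patterns, given below, so that they did not all come from the same animal. The labels name no array batch or date.

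LPS is a component of the outer membrane of Gram-negative bacteria. The coreceptor CD14 hands it to TLR4 with MD-2, and TLR4 signals along 2 routes. The adaptor MyD88 leads to NF-kB and AP-1 factors and to cytokines, chemokines and feedback inhibitors. The adaptor TRIF leads to IRF3, to interferon beta and, through the secreted interferon, to interferon-stimulated genes. HDAC3 is the histone deacetylase of the NCoR and SMRT corepressor complexes, which sit at many inflammatory genes in resting macrophages. Which of these genes still respond when HDAC3 is missing is the question that the comparison addresses.

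Every array reported a log2 signal per probe set, and 1 probe set stood for each of 19945 genes. A response is the mean log2 signal with LPS minus the mean without it, given ± 1 standard error (SE) of a limma model of all 12 arrays, with n = 3 arrays per group throughout. Rises and falls are those with a p-value under 0.05 after Benjamini-Hochberg adjustment across the 19945 genes. The difference of the -/- and the +/- response, the interaction of genotype and LPS, was tested in the same model. An Hdac3 -/- array is called untreated 1, 2 or 3, or LPS 1, 2 or 3, after its replicate number.

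Hdac3 itself read 7.39, 7.53 and 7.39 without LPS and 6.91, 7.25 and 7.18 with LPS on -/- arrays, all below the lowest of the 6 +/- arrays, 8.66. Its difference between the untreated genotypes was -1.74 ± 0.15, and its own LPS response in -/- arrays did not pass (-0.32 ± 0.15, adjusted p = 0.262). With array weights the LPS response of Hdac3 was called (adjusted p = 0.0326). Whether its probes lie inside the deleted part is unknown here. Of 12 macrophage markers, all 12 were above the median signal of the arrays, and their mean log2 signal was 11.33 to 11.49 in untreated and 11.11 to 11.18 in LPS-treated -/- arrays. Limma called no marker of neutrophils, T cells, B cells, NK cells, dendritic cells, eosinophils or stromal cells in the -/- LPS response, with 2, 0, 0, 0, 2, 0 and 1 of them higher at an unadjusted p under 0.05. The mean log2 signal of those 7 marker lists was at most 5.45 in any -/- array. Single markers were above the median signal, by their mean over all 12 arrays. In the same order these were 3 of 12, 1 of 9, 0 of 8, 0 of 8, 1 of 9, 2 of 7 and 5 of 10. Of the lists of mast cell, erythroid and osteoclast markers, Hdc and Acp5 rose and Tfrc and Nfatc1 fell. Tfrc lost its call without untreated 1, untreated 3, LPS 2 or LPS 3 (adjusted p up to 0.154), and Acp5 without untreated 1 or LPS 1 (up to 0.064). The neutrophil gene S100a8 had 2.17 and did not pass (adjusted p = 0.117), but was called when only the 6 -/- arrays were fitted (0.0414), with the replicate number as a block (0.014) and without +/- LPS 2 (0.0221). Camp, another neutrophil gene, had 0.59 and was called in the same 3 settings (adjusted p = 0.0299, 0.0345 and 0.046) and with array weights (0.0241). The eosinophil gene Ccr3 (0.94) was called with the 6 arrays alone (adjusted p = 0.0266) and with the block (0.0289). The dendritic cell gene Itgax (0.83) was called with array weights (adjusted p = 0.00846), with the block (0.00808), without untreated 1 (0.0483) and without LPS 2 (0.00343). Array weights also gave calls for Blk, Prf1, Klrb1c, Siglech and Epx of these lists (adjusted p of 0.0147 to 0.0388). The part of such cells in the results was not tested, and in bulk RNA fewer cells of a type cannot be told apart from less RNA per cell. The X-linked Xist was between 9.84 and 10.49 in all 6 -/- arrays, whose Y-linked Eif2s3y was between 2.20 and 2.47, so that the -/- response compares arrays of 1 pattern. In the +/- arrays numbered 1, untreated and LPS, Xist was at 3.93 and 3.20 and Eif2s3y at 7.76 and 7.93, the pattern of male cells, and the other 4 +/- arrays had Xist at 9.67 to 10.98.

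LPS raised 736 genes in Hdac3 -/- macrophages, 3.69% of those tested, and lowered 1033, or 5.18%. A change of at least 2-fold was seen for 421 genes that rose (2.11%) and 348 that fell (1.74%). The median response of all genes was 0.021. Of the 1769 called genes 1763 had no overlap between the untreated and the LPS-treated -/- arrays, as did 5644 genes in all, or 28.3%. After cyclic loess normalization 925 genes rose and 802 fell, so that the share of rises was 53.6% in place of 41.6%. The number of falls was lower without untreated 1 (576), untreated 3 (662), LPS 1 (608) or LPS 2 (592).

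The genes that rose most were led by interleukin 1. Il1a, the cell-associated alarmin form, went from 4.15, 3.75 and 3.55 without LPS to 11.32, 11.10 and 11.09 with it. That is a 164-fold rise (7.35 ± 0.28, adjusted p = 3.05e-09), and the groups lay far apart. Il1b, the secreted form that needs the inflammasome, was at 4.48, 4.34 and 4.86 and then at 11.66, 11.31 and 11.35, or 118-fold higher (6.88 ± 0.27). After leaving out accession-like names, the chemokines Cxcl10 (6.99, above Il1b), Ccl5 (6.38), Cxcl3 (5.67) and Cxcl2 (5.14) were among the 15 largest rises. The antiviral genes Ifit1 (5.97), Rsad2 (5.66), Cmpk2 (5.26), Oasl1 (5.04) and Mx2 (4.82) stood among them, as did the cholesterol 25-hydroxylase Ch25h (5.42), the inducible cyclooxygenase Ptgs2 (5.41), the IL-12 and IL-23 subunit Il12b (5.22) and the arginine transporter Slc7a2 (4.89). RefSeq lists Mx2 as a transcribed pseudogene in this reference. All 15 of these genes also rose in +/- arrays, and the interaction was called for 1 of them, Cxcl10.

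**Figure D1:**
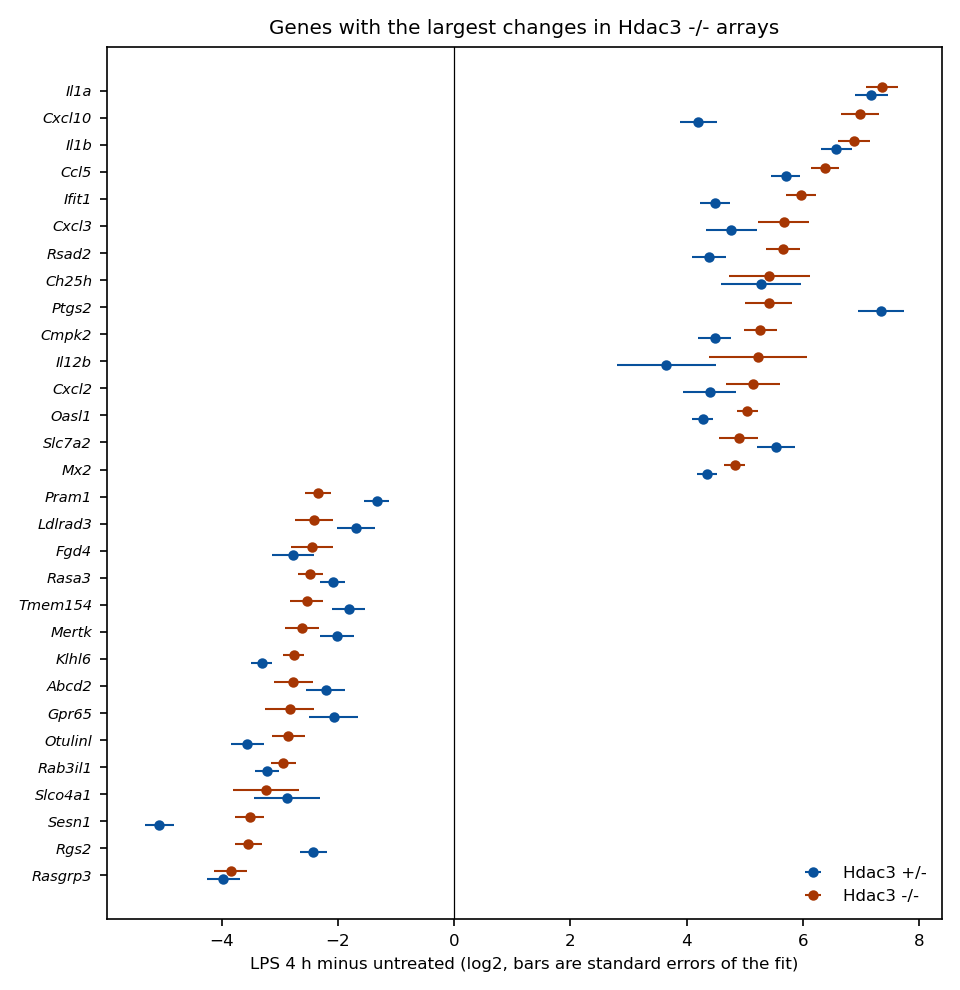
LPS response on the log2 scale (horizontal axis) of the 15 genes that rose most and the 15 that fell most in Hdac3 -/- arrays, with Hdac3 +/- arrays beside them. Points are fitted differences and bars their standard errors, n = 3 arrays per group. Il1a is at 7.35 in -/- and 7.18 in +/- arrays, Rasgrp3 at -3.85 and -3.97, and the points of Cxcl10 lie apart at 6.99 and 4.20.

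Of the genes that fell, Rasgrp3 changed most. Rasgrp3, a guanine nucleotide exchange factor of Ras and Rap, went from 8.18, 8.21 and 8.24 to 4.21, 4.97 and 3.91. It fell by 3.85 (SE 0.28, adjusted p = 1.13e-06), and the +/- response was -3.97. Rgs2, a GTPase activator that shortens G protein signals, fell by 3.54, and the stress sensor Sesn1 by 3.52. The organic anion transporter Slco4a1 (-3.23), Rab3il1 (-2.94), Otulinl (-2.85), the proton-sensing receptor Gpr65 (-2.83), the peroxisomal transporter Abcd2 (-2.77) and Klhl6 (-2.76) followed. Mertk, the receptor that takes up apoptotic cells, was at 8.93, 9.39 and 9.27 and then at 6.39, 6.84 and 6.52, a fall of 2.61. Tmem154 (-2.54), the Ras GTPase activator Rasa3 (-2.47), Fgd4 (-2.45), Ldlrad3 (-2.41) and Pram1 (-2.34) completed the 15. All 15 also fell in +/- arrays. The interaction did not pass for any of them in limma, and the adjusted p nearest to the threshold was that of Sesn1 (1.55, adjusted p = 0.0555).

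What survived without Hdac3 was counted against the +/- response, which shares no arrays with it. In +/- arrays 1912 genes rose (9.59%) and 3085 fell (15.5%). Of the 712 genes that rose at least 2-fold there, 431 also rose in -/- arrays, or 60.5%, and 337 of them at least 2-fold. Over the alternatives, each with its own choice of genes, that share was 49.4% (without LPS 1) to 77.6% (array weights). The sign of the response was the same for 679 of the 712. The median response of the 712 was 1.64 in the arrays that chose them and 1.01 in -/- arrays. The -/- response was a median 0.60 of the +/- response on the log2 scale, with quartiles at 0.32 and 0.88. It was under 0.25 of it for 129 genes, 0.25 to 0.75 for 324, 0.75 to 1.25 for 217 and above that for 42. The gene called in the opposite direction was Nfxl1, a zinc finger gene named after its values were seen, which fell by 0.56 in -/- (adjusted p = 0.0107) and rose by 1.15 in +/- arrays. Its -/- fall lost its call without untreated 3 (adjusted p = 0.0592) or LPS 1 (0.0554).

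For repressed genes the count was made the same way. Of 1080 genes that fell at least 2-fold in +/- arrays, 527 fell in -/- arrays, or 48.8%, while 1062 kept the negative sign. Over the alternatives the share was 33.6% (without LPS 2) to 73.8% (array weights). For the 1080 genes of the main fit the medians and the ratio follow. Their medians were -1.32 and -0.76, and the median ratio was 0.56. A group chosen for large values in some arrays tends to be smaller in others, so the count was also made the other way round. Of the 421 genes raised at least 2-fold in -/- arrays 376 rose in +/- arrays (89.3%), with medians of 1.60 in -/- and 1.78 in +/-. Of the 348 lowered in -/- arrays 317 fell in +/- arrays (91.1%), with medians of -1.28 and -1.51.

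The interaction was called for 216 genes. It was more positive in -/- arrays for 61 (0.306%) and more negative for 155 (0.777%). Among the 712 genes induced in +/- arrays 124 had a more negative and 7 a more positive response in -/- arrays. Among the 1080 repressed genes 38 had a more positive, that is a weaker, response. Both groups were chosen by the +/- response that the interaction subtracts, which pushes these counts towards a weaker -/- response. A choice by the -/- response pushes the other way. Among the 421 genes raised at least 2-fold in -/- arrays 12 had a more positive and 21 a more negative interaction. Among the 348 lowered genes these counts were 2 and 5. The counts of the interaction varied with single arrays: the 61 became 19 without untreated 1, 39 without untreated 3, 21 without LPS 1, 20 without LPS 3, 20 without +/- LPS 3, 39 and 37 without +/- untreated 2 and 3, and 174 without +/- LPS 1. Without both +/- arrays numbered 1, those with the male pattern, 110 genes were more positive and 119 more negative, a check chosen after seeing the data. With the replicate number within each genotype as a block, 107 genes were more positive. The 155 became 78 without untreated 1, 100 without LPS 1 and 93 without LPS 3.

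**Figure D2:**
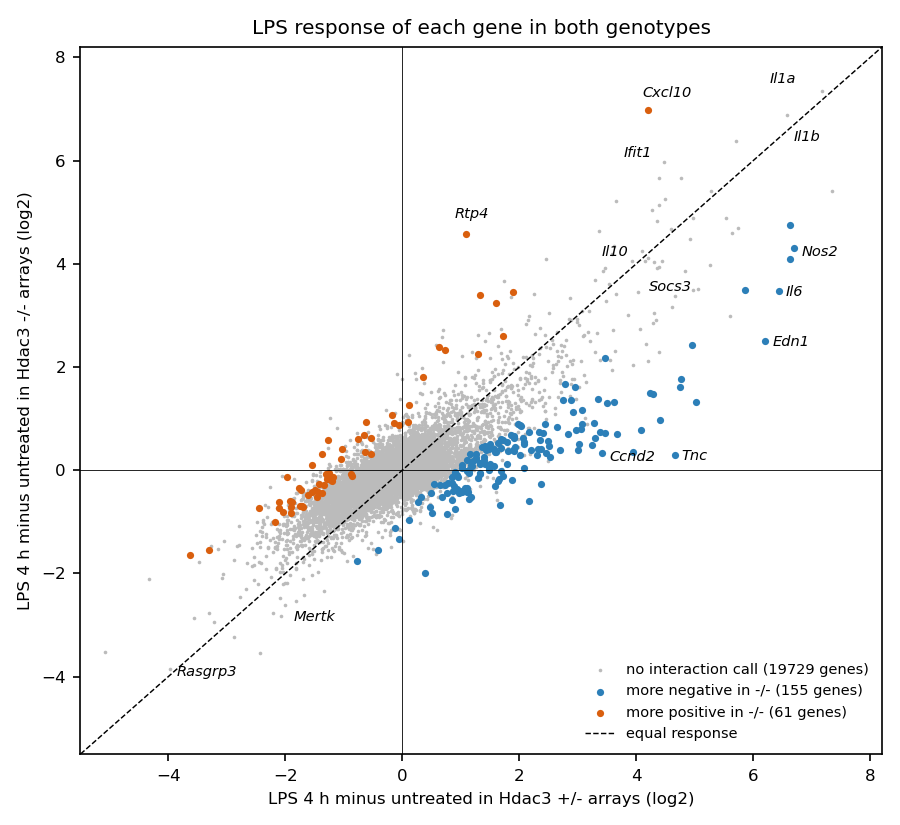
LPS response of each of 19945 genes on the log2 scale in Hdac3 +/- arrays (horizontal) and Hdac3 -/- arrays (vertical), with the line of equal response dashed. Coloured points are the 155 genes with a more negative and the 61 with a more positive response in -/- arrays by the interaction test. Il1a, Il1b, Il10 and Socs3 lie near the line, Tnc, Edn1 and Il6 below it and Cxcl10 and Rtp4 above it.

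Of 22 receptors, adaptors and kinases of LPS recognition measured, 3 rose and 2 fell in -/- arrays, where 3.69% and 5.18% of all genes did, with a median of 0.12. Over the alternatives 1 to 6 rose and 2 to 4 fell. Cd14, the coreceptor, was at 11.02, 10.21 and 10.96 untreated and at 12.16, 12.14 and 12.15 with LPS, and rose by 1.42 (SE 0.20, adjusted p = 0.000399). Tlr4 was at 8.82, 8.54 and 8.84 and then at 7.04, 7.10 and 7.39, a fall of 1.56 (SE 0.17, adjusted p = 4.04e-05), with -1.16 in +/- arrays. The TLR4-like receptor Cd180 fell by 0.80. The adaptor gene Myd88 rose by 0.63 and the kinase Irak2 by 0.72, both acting downstream of the receptor. Myd88 lost its call without untreated 1 (adjusted p = 0.0553), untreated 2 (0.0675) or LPS 1 (0.0659). Irak2 lost it without untreated 1 (adjusted p = 0.104), untreated 2 (0.0989), LPS 1 (0.0742), LPS 2 (0.136) or LPS 3 (0.0532). Median centring ended the Irak2 call too (0.0532). In +/- arrays 9 of the 22 rose and 3 fell, where 9.59% and 15.5% of all genes did. These shares over all genes, and those in -/- arrays, also apply to the counts of the lists below.

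For NF-kB subunits and their regulators the median response was 1.14 in -/- and 1.18 in +/- arrays. Of 17 measured 11 rose in -/- and 10 in +/- arrays, where 3.69% and 9.59% of all genes did. Nfkb2, which encodes the precursor of the noncanonical subunit p52, was at 8.54, 7.87 and 8.78 and then at 10.32, 10.36 and 9.83, a 3.41-fold rise (1.77 ± 0.22, adjusted p = 0.000128). Tnip1 (1.88), which helps the ubiquitin editor A20, and the nuclear cofactor Nfkbiz (1.54) rose as well. Nfkbia encodes the inhibitor IkB alpha, a direct target that shuts NF-kB off again, and was named after its values were seen. It went from 10.31, 9.88 and 10.29 to 11.54, 11.53 and 11.47, and rose by 1.35 (SE 0.14, adjusted p = 4.04e-05) against 2.06 in +/- arrays. The groups did not overlap in either case, and the interaction did not pass (-0.71, adjusted p = 0.13). Tnfaip3, the gene of A20, rose by 2.17 in -/- and 3.47 in +/- arrays. Its interaction (-1.29, adjusted p = 0.0476) lost its call without 10 of the 12 arrays in turn, at an adjusted p of 0.0509 to 0.135. These were all but untreated 2 and +/- LPS 1. Median centring (0.0562), a variance trend (0.0511) and leaving out both +/- arrays numbered 1 (0.0717) ended the call too. The NF-kB median was 0.81 without untreated 2.

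Factors of the AP-1, ATF, EGR and C/EBP families had 10 of 29 members up in -/- arrays (median 0.38) and 13 in +/- arrays (0.51). The stress factor Atf3 was at 9.93, 9.76 and 9.30 and then at 11.71, 11.94 and 11.53, a rise of 2.06 (SE 0.17), and had 1.76 in +/- arrays. Egr2 rose by 1.98 and was at 0.35 in +/- arrays (adjusted p = 0.453), with an interaction that did not pass (1.63, adjusted p = 0.128). The immediate early gene Ier3 (1.79) and the AP-1 subunit Fosl2 (1.46) rose too. Klf6, a zinc finger factor named after its values were seen, had -0.41 in -/- (adjusted p = 0.0642) and 0.98 in +/- arrays, with an interaction of -1.39 ± 0.18 (adjusted p = 0.0016). Its -/- fall was called with the 6 -/- arrays alone (adjusted p = 0.0438), quantile normalization (0.0376) and array weights (0.00257). Leaving out dim genes (0.0446) or +/- untreated 2 (0.0497) gave that call too.

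Feedback inhibitors end the response. Of 23 measured 16 rose in -/- arrays and 20 in +/- arrays (all genes 3.69% and 9.59%), with medians of 1.83 and 2.11. Socs3, which blocks signalling by IL-6 family receptors, was at 7.06, 6.79 and 7.09 and then at 11.18, 10.97 and 10.86, a 16.3-fold rise (4.03 ± 0.17, adjusted p = 4.78e-09), and had 4.31 in +/- arrays. Il10, the anti-inflammatory cytokine, was at 4.20, 3.98 and 5.04 and then at 8.69, 8.87 and 7.81. It rose 16.6-fold (4.05 ± 0.36), and its interaction was -0.11 ± 0.51. The IL-1 receptor antagonist Il1rn (4.47) and the ISG15 protease Usp18 (4.64) rose as well. A larger difference was seen for Dusp2, a nuclear phosphatase of MAP kinases named after its values were seen. It had 0.75 in -/- (adjusted p = 0.116) and 3.38 in +/- arrays, with an interaction of -2.64 ± 0.38 (adjusted p = 0.00382). Its -/- rise was called with the 6 -/- arrays alone (adjusted p = 0.0212), with array weights (0.0101) and without +/- LPS 3 (0.0231).

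**Figure D3:**
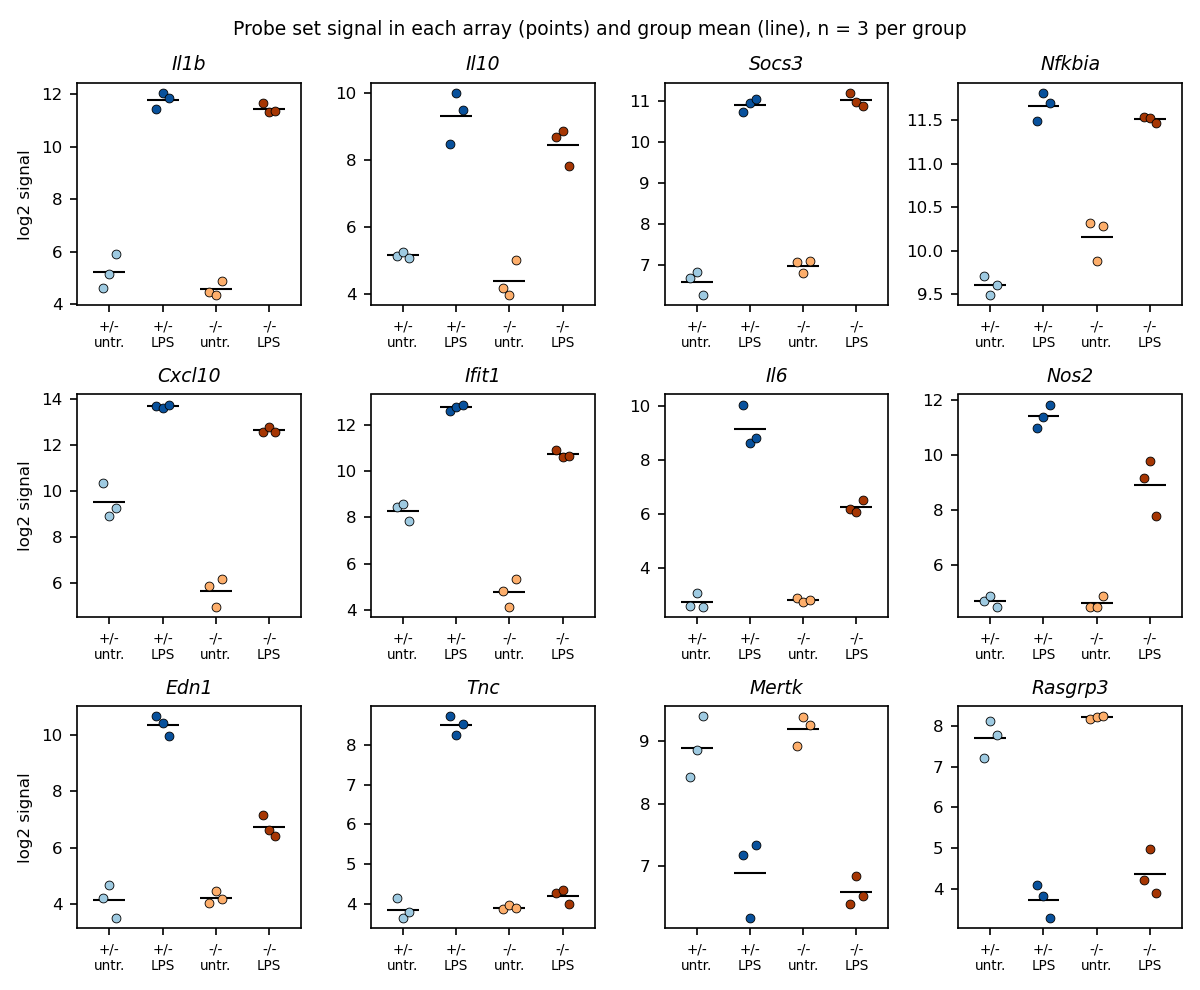
Log2 signal (vertical axis of each panel) of 12 genes in each of the 12 arrays, with a line at the mean of each group of 3. LPS-treated -/- arrays overlap LPS-treated +/- arrays for Il1b, Socs3 and Nfkbia, lie between untreated and LPS-treated +/- arrays for Il6, Nos2 and Edn1, and stay near the untreated level for Tnc.

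Cytokines and growth factors carry the response to other cells. Of 33 measured 18 rose in -/- arrays and 25 in +/- arrays (all genes 3.69% and 9.59%), and the median was 1.33 against 2.44. The median of the members' own differences between the genotypes was smaller, -0.28, and the interaction was called for 6 of the 33, each more negative in -/- arrays. Tnf was at 10.37, 10.68 and 9.41 untreated and 12.58, 12.59 and 12.59 with LPS, a 5.4-fold rise (2.43 ± 0.36, adjusted p = 0.000691), with 2.72 in +/- arrays. Il12b rose 37.4-fold in -/- (5.22 ± 0.85) and by 3.65 in +/- arrays, and its interaction did not pass (1.57 ± 1.20). Il1a, Il1b, Tnf, Il10 and Il12b therefore rose in both genotypes with no call of a difference.

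Il6, the acute phase cytokine, went from 2.86, 2.71 and 2.80 to 6.19, 6.06 and 6.53 in -/- arrays. It rose 11.1-fold (3.47 ± 0.29, adjusted p = 4.66e-06), while its mean went from 2.73 to 9.17 in +/- arrays, a rise of 6.44. The interaction was -2.97 ± 0.41 (adjusted p = 0.00298), and the LPS-treated groups did not overlap. Edn1, the precursor of the vasoconstrictor endothelin 1, was at 4.04, 4.47 and 4.16 and then at 7.17, 6.61 and 6.42, a rise of 2.50, against 6.21 in +/- arrays (interaction -3.70 ± 0.39, adjusted p = 0.000476). Tnfsf10, the death ligand TRAIL, rose by 1.62 against 4.74 (interaction -3.12 ± 0.36). Il18 and Il15, both named after their values were seen, had interactions of -2.29 ± 0.29 and -2.19 ± 0.32. Il18 was at 0.40 in -/- (adjusted p = 0.304) and 2.69 in +/- arrays, and its -/- rise was called with array weights (adjusted p = 0.031). Il15, which sustains NK and memory T cells, had 0.89 and 3.08, and its -/- call was lost without untreated 1 (adjusted p = 0.0635), untreated 2 (0.0929), LPS 1 (0.067) or LPS 2 (0.104).

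Chemokines had 10 of 25 members up in -/- and 17 in +/- arrays (all genes 3.69% and 9.59%). Their medians were 0.81 and 2.13, and the -/- median was 1.74 when dim genes were left out. The median of the members' own differences was -0.36, and the interaction was called for 1 member in each direction. Ccl5, a chemokine that attracts T cells and monocytes, was at 6.80, 5.84 and 6.95 and then at 12.96, 12.91 and 12.84, an 83.0-fold rise (6.38 ± 0.25), and Cxcl3, a ligand of CXCR2 on neutrophils, rose 50.9-fold. Cxcl10, a ligand of CXCR3 on T cells, went from 5.86, 4.96 and 6.16 to 12.58, 12.79 and 12.56 in -/- arrays, a 127-fold rise (6.99 ± 0.32). In +/- arrays its mean went from 9.51 to 13.71. The -/- response was the larger, by 2.78 ± 0.46 (adjusted p = 0.00924), and it started from a level below every +/- array. Its neighbour Cxcl11 went the other way, with 0.97 in -/- and 4.41 in +/- arrays (interaction -3.44 ± 0.36, adjusted p = 0.000474). RefSeq lists Cxcl11 as a transcribed pseudogene in this reference. The -/- call of Cxcl11 was lost without untreated 1 (adjusted p = 0.128), untreated 3 (0.0616), LPS 1 (0.0906) or LPS 2 (0.106).

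Promoters of 4 of these genes show the sites that the main routes of the LPS response use, and how genes with like sites differed in the data. They cover 250 bases before to 50 after the start of the gene in RefSeq, mouse assembly GRCm38.p6, in the direction of transcription. Capitals mark matches on either strand to GAAANNGAAA, a form of the interferon-stimulated response element (ISRE), and to GGGANNTTCC, a form of the NF-kB site (kB). Cxcl10 (chr5:92348840-92349139, minus strand) has a match of both kinds, Ifit1 (chr19:34640639-34640938, plus strand) has a pair of ISRE matches, and Nfkbia (chr12:55492598-55492897, minus strand) and Il6 (chr5:30012864-30013163, plus strand) have a kB match each. Il6 is shown beside Nfkbia because the interaction was called for the former and not for the latter.
Cxcl10 promoter: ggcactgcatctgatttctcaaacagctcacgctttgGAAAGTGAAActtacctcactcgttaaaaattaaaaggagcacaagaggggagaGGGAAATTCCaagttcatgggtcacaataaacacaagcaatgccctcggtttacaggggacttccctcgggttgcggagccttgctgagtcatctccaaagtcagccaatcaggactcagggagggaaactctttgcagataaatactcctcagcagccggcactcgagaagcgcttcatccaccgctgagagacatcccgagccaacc
Ifit1 promoter: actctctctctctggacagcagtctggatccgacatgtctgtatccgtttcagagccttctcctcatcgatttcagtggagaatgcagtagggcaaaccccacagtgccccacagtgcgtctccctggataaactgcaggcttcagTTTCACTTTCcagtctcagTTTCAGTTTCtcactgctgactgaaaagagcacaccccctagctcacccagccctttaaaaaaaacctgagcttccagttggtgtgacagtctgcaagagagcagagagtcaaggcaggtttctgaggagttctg
Nfkbia promoter: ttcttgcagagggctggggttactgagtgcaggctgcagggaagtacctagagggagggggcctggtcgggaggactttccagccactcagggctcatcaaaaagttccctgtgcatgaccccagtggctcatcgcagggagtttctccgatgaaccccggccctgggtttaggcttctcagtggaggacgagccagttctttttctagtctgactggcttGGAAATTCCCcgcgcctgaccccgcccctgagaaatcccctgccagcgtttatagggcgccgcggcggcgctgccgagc
Il6 promoter: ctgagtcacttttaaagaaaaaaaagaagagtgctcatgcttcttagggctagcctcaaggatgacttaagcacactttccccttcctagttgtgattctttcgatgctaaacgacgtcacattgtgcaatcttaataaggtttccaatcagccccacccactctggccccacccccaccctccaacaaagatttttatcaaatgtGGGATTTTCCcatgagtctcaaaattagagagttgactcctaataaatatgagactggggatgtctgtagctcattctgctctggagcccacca
Counted from the start, the kB match of Cxcl10 begins at base -159 and its ISRE match at -213, those of Ifit1 begin at -104 and -85, and the kB matches of Nfkbia and Il6 begin at -29 and -44. Of 15562 tested genes with such a promoter 3.89% held the ISRE letters and 1.6% the kB letters. Of 332 that rose at least 2-fold in -/- arrays 12.3% and 4.22% did, and of 279 that fell 3.23% and 0.717%. Among 121 genes with a more negative interaction the shares were 15.7% and 2.48%, and among 49 with a more positive one 10.2% and 4.08%. Of 30 interferon-stimulated genes with a promoter 53.3% held the ISRE letters, and of 14 genes of the NF-kB list 21.4% held the kB letters. These shares are a description of letters in a short window.

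The interferon-stimulated genes responded in both genotypes from different levels. In -/- arrays 39 of 40 measured rose, with a median response of 2.75, and in +/- arrays 39 of 40 rose, with a median of 2.49. The member that did not pass in either was the tetherin gene Bst2 (0.81 in -/-, adjusted p = 0.271), named for that reason. Its -/- rise was called with the replicate number as a block (adjusted p = 0.0164). The median log2 signal over the 40 genes went from 5.73, 5.38 and 6.07 to 9.10, 8.58 and 8.72 on the -/- arrays. On the +/- arrays it went from 8.25, 8.32 and 8.03 to 10.91, 10.75 and 10.91. Of the 40 genes 35 were lower in untreated -/- than in untreated +/- arrays (background 1.44% of all genes) and 38 were lower after LPS (background 5.99%). The mean of LPS-treated -/- arrays was above the mean of untreated +/- arrays for 29 of the 40, and for 40 of 40 below that of LPS-treated +/- arrays. These comparisons share arrays with the responses and are given side by side.

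**Figure D4:**
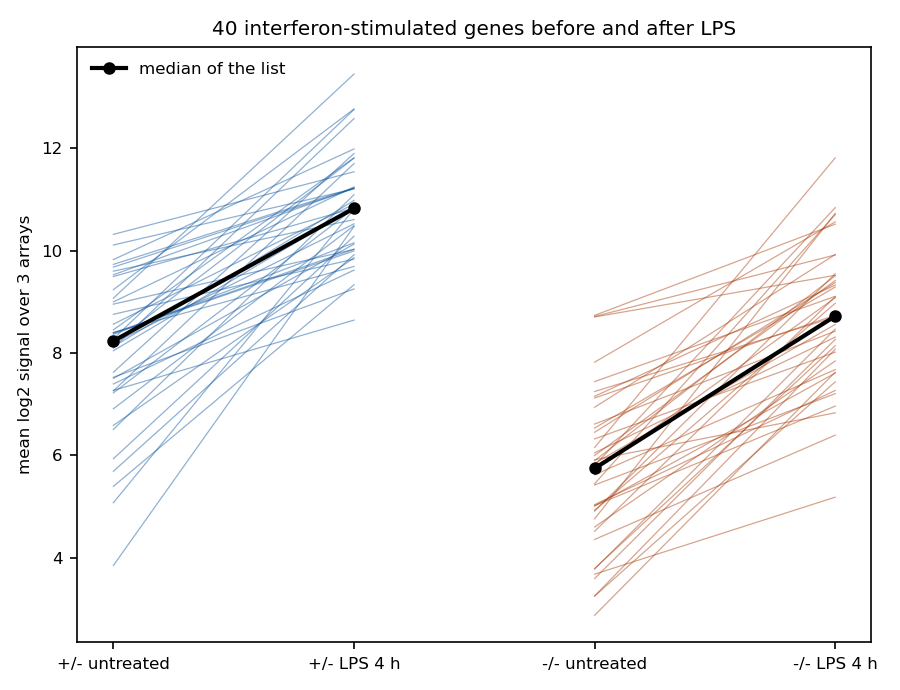
Mean log2 signal over 3 arrays (vertical axis) of 40 interferon-stimulated genes, 1 thin line per gene from untreated to LPS-treated cells in each genotype, with the median of the list in black. The median goes from 8.23 to 10.83 in +/- and from 5.75 to 8.72 in -/- arrays, and the -/- lines start and end lower.

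Ifit1, which binds viral RNA that lacks a host cap, was at 4.80, 4.13 and 5.34 untreated and at 10.91, 10.62 and 10.65 with LPS in -/- arrays, a 62.6-fold rise (5.97 ± 0.26, adjusted p = 8.11e-09). In +/- arrays its mean went from 8.28 to 12.76, a rise of 4.48, and the interaction did not pass (1.49 ± 0.36, adjusted p = 0.072). Rtp4, a chaperone of G protein-coupled receptors, was at 4.49, 3.88 and 5.16 and then at 9.46, 8.75 and 9.09. It rose 24.0-fold in -/- arrays (4.59 ± 0.26) and by 1.10 in +/- arrays, whose means were 10.11 and 11.21, and the interaction was 3.49 ± 0.36 (adjusted p = 0.000474). Samd9l, an antiviral translation inhibitor, rose by 3.25 in -/- and 1.61 in +/- arrays (interaction 1.64 ± 0.26, adjusted p = 0.00649). Other members had the opposite interaction, among them the exonuclease gene Isg20 (-2.36 ± 0.36) and the GTPase gene Iigp1 (-2.73 ± 0.42), named after their values were seen. Iigp1 rose by 1.51 in -/- and 4.23 in +/- arrays. Isg20 had 0.92 against 3.28, and its -/- call was lost without untreated 1 (adjusted p = 0.0952), untreated 2 (0.128), LPS 1 (0.148) or LPS 3 (0.121). Over the list the interaction was called for 4 members in each direction, where 0.306% of all genes were more positive and 0.777% more negative. Without LPS 3 the calls of Oasl2 (adjusted p = 0.0958), Xaf1 (0.0895), Ifi205 (0.0835) and Daxx (0.111) were lost. Xaf1 (0.0554) and Daxx (0.052) lost theirs with the replicate number as a block. Quantile normalization ended those of Xaf1 (0.0528), Ifi205 (0.0552) and Daxx (0.0656), and cyclic loess those of Oasl2 (0.0552) and Xaf1 (0.0857). Leaving out both +/- arrays numbered 1 ended those of Oasl2 (0.0681) and Xaf1 (0.0945). Members of the Ifit, Oas, Mx, Gbp and Ifi200 families are similar in sequence, so that a probe set may also have read a relative.

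Among genes also called in an LPS response, without predicted genes and clone names, the 12 largest negative interactions held Gbp4, Ifit3b and Ifi214. These genes are not in that list. The GTPase gene Gbp4 was at 3.88, 3.73 and 3.90 and then at 5.87, 5.36 and 5.60, a rise of 1.77 against 4.77 in +/- arrays (interaction -3.00 ± 0.27, adjusted p = 0.000232). Ifit3b rose by 1.48 against 4.28, and Ifi214 had 0.78 in -/- (adjusted p = 0.228) against 4.09. Among 17 genes of interferon signalling 6 rose and 2 fell in -/- arrays (median 0.41), and 9 rose and 3 fell in +/- arrays (0.56). The receptor kinase Jak2 was at 7.60, 7.57 and 7.79 and then at 10.50, 10.45 and 10.02, a rise of 2.67. Stat2 (1.71), Irf9 (1.29) and Irf1 (1.17), transcription factors of the pathway, rose as well. Irf9 had 0.42 in +/- arrays (adjusted p = 0.0729), with an interaction of 0.88 that did not pass (adjusted p = 0.0912). The falls were the interferon gamma receptor gene Ifngr1 (-0.91) and the signalling inhibitor gene Pias1 (-0.76), named after their values were seen. Ifngr1 lost its call without untreated 3 (adjusted p = 0.0606) or LPS 1 (0.0599), and Pias1 without untreated 1 (0.0513), untreated 3 (0.0719) or LPS 1 (0.0721). Ifnb1, interferon beta itself, was at 3.70, 4.25 and 3.75 and then at 3.62, 4.23 and 3.71, with overlapping groups (-0.05 ± 0.22), and was at 0.10 in +/- arrays, both below the median signal of the arrays.

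Effector and eicosanoid enzymes had 12 of 27 members up and 2 down in -/- arrays and 16 up and 5 down in +/- arrays, with medians of 1.31 and 1.82. The -/- median was 0.95 without untreated 2. Nos2, which makes nitric oxide, was at 4.50, 4.50 and 4.87 and then at 9.18, 9.80 and 7.79, a 19.7-fold rise (4.30 ± 0.38) against 6.70 in +/- arrays. The interaction of Nos2 was -2.40 ± 0.53 with an adjusted p of 0.0492. It lost its call without 9 of the 12 arrays in turn, at an adjusted p of 0.0682 to 0.129. These were all but LPS 2, LPS 3 and +/- LPS 1. Cyclic loess (0.0587), quantile normalization (0.0709), median centring (0.0512), a variance trend (0.0506) and robust variances (0.0928) ended the call too. Leaving out both +/- arrays numbered 1 also ended it (0.0684). Ptgs2 was at 5.20, 4.51 and 4.67 and then at 9.65, 11.38 and 9.58, 42.5-fold higher, with LPS 2 above the other LPS arrays. Its interaction did not pass (-1.93, adjusted p = 0.14). Ch25h rose 42.8-fold and Slc7a2 29.7-fold. Hdc, which makes histamine, rose by 1.33 in -/- and 3.62 in +/- arrays (interaction -2.28 ± 0.28, adjusted p = 0.00119). The falls were the prostaglandin D synthase gene Hpgds (-1.68) and the lipoxygenase gene Alox5 (-1.04), both named after their values were seen. Alox5 lost its call without untreated 1 (adjusted p = 0.103), untreated 3 (0.0717), LPS 2 (0.0848) or LPS 3 (0.0593).

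Surface receptors and costimulatory molecules had 11 of 32 members up in -/- and 19 in +/- arrays (all genes 3.69% and 9.59%). In this list 1 member fell in -/- and 2 in +/- arrays. Their medians were 0.77 and 1.17. Cd274, the checkpoint ligand PD-L1, was at 6.77, 6.45 and 6.80 and then at 10.33, 10.14 and 9.89, a 10.9-fold rise (3.45 ± 0.18, adjusted p = 3.42e-08). Cd40, through which T cells activate macrophages, rose by 3.00, and the C-type lectin Clec4e, which senses mycobacterial glycolipid, by 2.63. Neither Cd274, Cd40 nor Clec4e had an interaction call. Tlr3, the sensor of double-stranded RNA, had 0.46 in -/- (adjusted p = 0.0585) and 2.51 in +/- arrays, with an interaction of -2.05 ± 0.20 (adjusted p = 0.000455). Its -/- rise was called with the 6 -/- arrays alone (adjusted p = 0.0359), cyclic loess (0.0118), quantile normalization (0.017) and array weights (0.0018). Leaving out dim genes (0.0415), +/- LPS 1 (0.0331) or both +/- arrays numbered 1 (0.0391) gave that call too. The costimulatory ligand Cd86 rose by 1.37 against 3.34 (interaction -1.97 ± 0.33, adjusted p = 0.0094), and the IL-13 receptor subunit Il13ra1 had 0.58 (adjusted p = 0.0871) against 2.35 (interaction -1.77 ± 0.27). With array weights the -/- rise of Il13ra1 was called (adjusted p = 0.0025). Tlr3, Cd86 and Il13ra1 were named after their values were seen. The activation marker Cd69 rose by 3.48 against 5.86 (interaction -2.38 ± 0.46, adjusted p = 0.0255), a call that was lost without untreated 1 (0.0727), untreated 3 (0.0632), LPS 1 (0.0773), LPS 3 (0.0837) or +/- LPS 3 (0.0585).

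Genes of survival, the inflammasome and cell death had 9 of 22 members up and 1 down in -/- arrays (median 0.67) and 15 up and 1 down in +/- arrays (0.80). The -/- fall was that of Pycard (-0.66), named after its values were seen, a call lost in 10 alternatives. The signalling adaptor Traf1 was at 5.68, 4.48 and 6.07 and then at 8.65, 8.33 and 8.48, a rise of 3.08 ± 0.33 in -/- and of 3.08 in +/- arrays. Malt1 (2.92), the protease of the CARD and BCL10 complex, Nlrp3 (2.19), the inflammasome sensor of cell damage, and the caspase 8 inhibitor Cflar (1.58) rose as well, and none of the 4 had an interaction call in limma. Aim2, the inflammasome sensor of cytosolic DNA, named after its values were seen, had 0.12 in -/- (adjusted p = 0.784) and 1.79 in +/- arrays, with an interaction of -1.68 ± 0.22 (adjusted p = 0.00202).

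Matrix and coagulation genes had 10 of 23 members up and 1 down in -/- arrays (median 0.96) and 12 up and 1 down in +/- arrays (0.68). The median of the members' own differences had the opposite sign to the difference of these medians, -0.22. The -/- median was 1.76 when dim genes were left out. The collagenase Mmp13 was at 7.44, 7.65 and 6.17 and then at 11.04, 11.62 and 10.87, a 17.0-fold rise (4.09 ± 0.32), against 6.63 in +/- arrays. Its interaction (-2.55 ± 0.45, adjusted p = 0.0143) lost its call without untreated 1 (0.054) or LPS 3 (0.0524). The serpin Serpinb2 (3.85), the metalloproteinase inhibitor Timp1 (2.98) and the stromelysin Mmp3 (2.57) rose too. Mmp3 had 0.68 in +/- arrays (adjusted p = 0.253), with an interaction of 1.90 that did not pass (adjusted p = 0.176). Tnc, an extracellular matrix glycoprotein that activates TLR4, had the largest interaction of the named genes. It read 3.85, 3.96 and 3.88 without LPS and 4.26, 4.34 and 3.98 with LPS on -/- arrays (0.29 ± 0.16, adjusted p = 0.365). In +/- arrays its mean went from 3.85 to 8.50, and the interaction was -4.36 ± 0.23 (adjusted p = 8.63e-07).

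Other genes that LPS raised in +/- arrays had no call in -/- arrays in the fit without weights or blocks. Lipg, the endothelial lipase, was at 3.83, 3.78 and 3.97 and then at 4.65, 3.92 and 4.07, with overlapping groups, and rose by 3.94 in +/- arrays (interaction -3.59 ± 0.39, adjusted p = 0.000565). Ccnd2, the D-type cyclin of the G1 phase, had 0.33 in -/- (adjusted p = 0.537) and 3.41 in +/- arrays (interaction -3.08 ± 0.35, adjusted p = 0.000777). Mxd1, which opposes MYC, had 0.70 (adjusted p = 0.107) and 3.67 (interaction -2.97 ± 0.35). Its -/- rise was called with array weights (adjusted p = 0.00894) and with the replicate number as a block (0.0478). In the other direction H2-M2, a nonclassical class I gene, was at 4.03, 3.90 and 4.11 and then at 6.20, 6.33 and 6.68, a rise of 2.39 in -/- against 0.63 in +/- arrays (interaction 1.76 ± 0.21, adjusted p = 0.00119). Impact, a regulator of translation under stress, and the zinc finger gene Zfp971 fell in +/- arrays, by 1.36 and 1.55, and were at 0.31 (adjusted p = 0.507) and 0.10 (adjusted p = 0.831) in -/- arrays, with interactions of 1.67 ± 0.30 and 1.65 ± 0.24.

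Of 24 genes for glycolysis and the response to hypoxia 11 rose and 1 fell in each genotype, with medians of 0.59 in -/- and 0.63 in +/- arrays and 0.39 in -/- without untreated 3. Pfkfb3, which makes the activator of phosphofructokinase, was at 6.77, 7.00 and 7.45 and then at 10.62, 10.92 and 9.90, a 10.6-fold rise (3.40 ± 0.31). The glucose transporter Slc2a1 was at 10.07, 9.88 and 9.41 and then at 11.97, 12.03 and 11.97, a rise of 2.20. The lipid droplet gene Hilpda (2.40) and the HIF hydroxylase Egln3 (1.90) rose in -/- arrays too. Targets of NRF2, the antioxidant response factor, had 3 of 19 members up with LPS in -/- arrays (median 0.24) and 4 up and 3 down in +/- arrays (-0.17). The cystine transporter Slc7a11 was at 9.57, 7.42 and 8.83 and then at 11.94, 12.38 and 11.98 (3.50 ± 0.52), and the thioredoxin reductase Txnrd1 rose by 0.98. The sulfiredoxin Srxn1 (1.08) lost its call without untreated 2 (adjusted p = 0.055), untreated 3 (0.0656), LPS 1 (0.068), LPS 2 (0.069) or LPS 3 (0.0974). The call was also lost when only the 6 -/- arrays were fitted (adjusted p = 0.0647) and with array weights (0.0773). Of the 19 NRF2 targets 12 were higher in untreated -/- than in untreated +/- arrays (background 1.22%) and 15 were higher after LPS (background 9.69%).

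**Figure D5:**
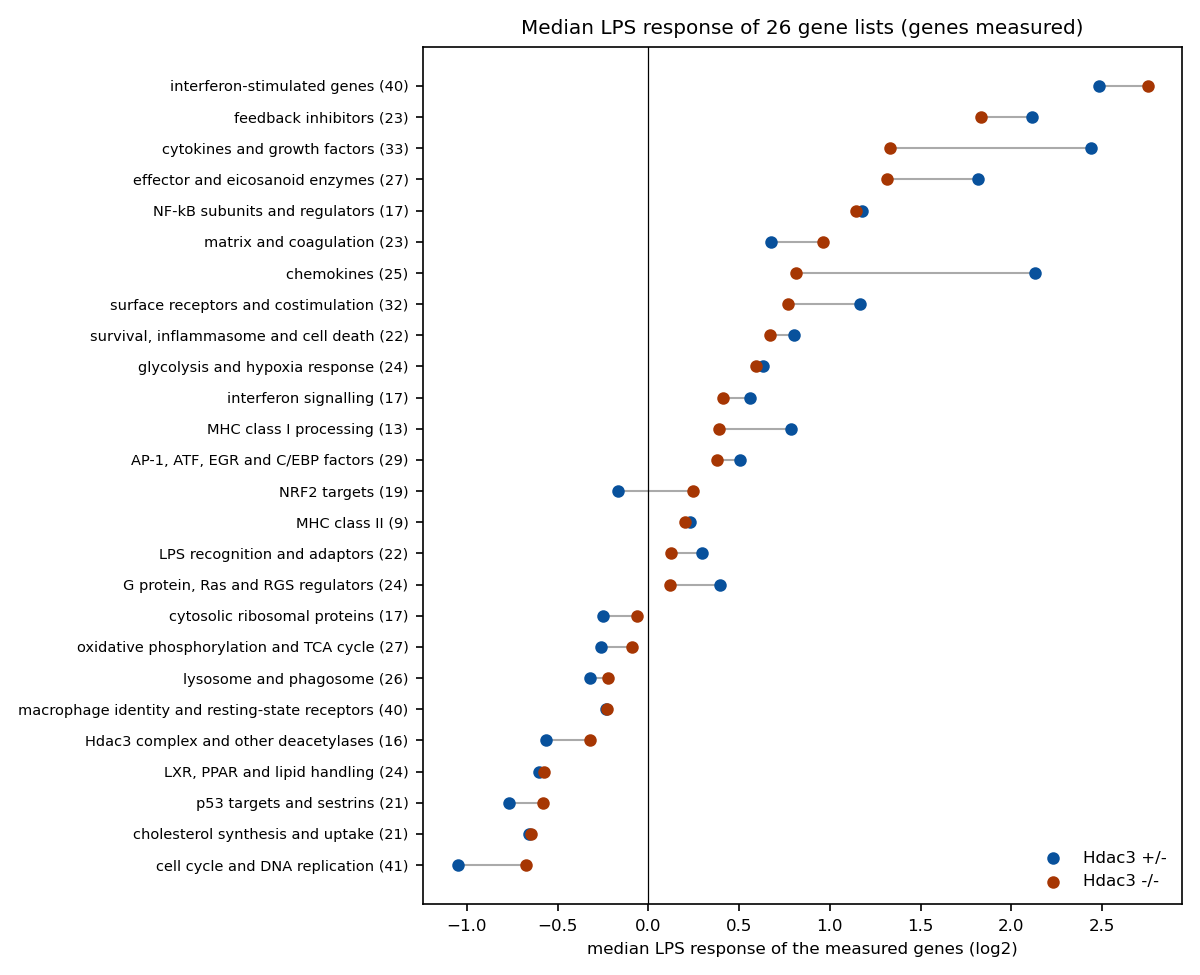
Median LPS response on the log2 scale (horizontal axis) of the measured members of 26 gene lists (vertical axis, number of genes in parentheses) in Hdac3 -/- and Hdac3 +/- arrays. The points of a list lie close together for NF-kB regulators (1.14 and 1.18) and glycolysis (0.59 and 0.63), and farther apart for cytokines (1.33 and 2.44) and chemokines (0.81 and 2.13), where the median of the members' own differences is smaller (-0.28 and -0.36).

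Resting-state receptors and identity genes of macrophages had 13 of 40 members down and 2 up in -/- arrays and 13 down and 6 up in +/- arrays, with a median of -0.23 in both. Gpr65 was at 7.63, 7.98 and 8.31 and then at 5.43, 4.00 and 6.02, and fell by 2.83 (SE 0.42). Cxcr4, the receptor that holds cells in the marrow, was at 9.79, 9.79 and 10.43 and then at 7.30, 8.29 and 8.05, a fall of 2.12 against one of 4.34 in +/- arrays, with an interaction that did not pass (2.22, adjusted p = 0.113). The monocyte chemokine receptor Ccr2 fell by 1.69 and the mannose receptor Mrc1 by 1.19. Ccr2 lost its call without untreated 1 (adjusted p = 0.0748), untreated 3 (0.0882), LPS 2 (0.0689) or LPS 3 (0.0634). Mrc1 lost it without untreated 1 (adjusted p = 0.0625), untreated 2 (0.0606), untreated 3 (0.0683), LPS 1 (0.0628) or LPS 3 (0.102). Cyclic loess ended the Mrc1 call (adjusted p = 0.0505) and robust variances that of Ccr2 (0.0531). Among 24 G protein, Ras and RGS regulators 7 rose and 6 fell in -/- arrays. Rgs2 was at 8.06, 8.29 and 8.45 and then at 4.37, 4.72 and 5.09, an 11.7-fold fall, and Rnd1, a small GTPase that loosens adhesion, rose by 3.35.

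Among 21 p53 targets and sestrins 7 fell in -/- and 12 in +/- arrays (all genes 5.18% and 15.5%), with medians of -0.58 and -0.76. The -/- count was 6 to 15 over the alternatives, and 14 at an unadjusted p under 0.05. Sesn1 was at 9.28, 9.21 and 9.68 and then at 5.79, 5.62 and 6.20, an 11.5-fold fall (-3.52 ± 0.25), against -5.07 in +/- arrays. The stress-induced autophagy gene Trp53inp1 (-2.08), the checkpoint kinase Chek2 (-1.47) and the cyclin Ccng2 (-1.26) fell as well. Ccng2 was at -0.21 in +/- arrays (adjusted p = 0.519), with an interaction of -1.05 that did not pass (adjusted p = 0.169). The exception to the falls was Mdm2, the ubiquitin ligase of p53, named after its values were seen, which rose by 1.05 in -/- and 0.93 in +/- arrays.

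Sterol genes had falls and no rises in either genotype. Of 21 measured, for making cholesterol and taking it up, 6 fell in -/- arrays (median -0.65) and 10 in +/- arrays (-0.66). Over all genes 5.18% and 15.5% fell. The -/- count was 3 to 16 over the alternatives, and 14 at an unadjusted p under 0.05. Dhcr7, the last enzyme of cholesterol synthesis, was at 8.03, 7.76 and 8.16 and then at 6.47, 6.52 and 6.55, a fall of 1.47 (SE 0.19, adjusted p = 0.000241). Insig1, the sterol sensor that holds SREBP back, fell by 1.26. Of 24 genes of LXR, PPAR and lipid handling 8 fell in -/- (median -0.57) and 9 in +/- arrays (-0.60), among them Abcd2, the cholesteryl ester hydrolase Nceh1 (-1.35) and the fatty acid synthase Fasn (-1.20). That -/- count was 4 to 11 over the alternatives, and 11 at an unadjusted p under 0.05. The cholesterol exporter Abcg1 (-1.98) lost its call without untreated 1 (adjusted p = 0.145), untreated 3 (0.145), LPS 1 (0.0843) or LPS 2 (0.152). Robust variances ended that call too (adjusted p = 0.1005).

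Cell cycle and replication genes had 6 of 41 members down in -/- and 20 in +/- arrays, where 5.18% and 15.5% of all genes fell. Their medians were -0.67 and -1.05. At an unadjusted p under 0.05 the -/- count was 18. Cdk2, the kinase of the S phase, was at 9.19, 9.20 and 8.95 and then at 7.63, 7.50 and 7.86, a fall of 1.45 (SE 0.24) against -1.98. The licensing factor Cdc6 fell by 1.63, and lost its call without untreated 1 (adjusted p = 0.0576), untreated 2 (0.0606) or LPS 1 (0.0701). The count of falls in this list ranged from 2 to 22 over the alternatives.

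Among 13 genes of MHC class I processing 3 rose in -/- and 10 in +/- arrays, where 3.69% and 9.59% of all genes did. The 3 were the peptide transporter gene Tap1 (1.32), the proteasome activator Psme2 (0.89) and the immunoproteasome subunit Psmb9 (0.58). Of 16 deacetylases and members of the Hdac3 complex 2 fell in -/- arrays, the class IIa deacetylase Hdac5 (7.88, 7.89 and 8.06, then 6.89, 6.81 and 6.89, a fall of 1.08) and the corepressor exchange factor Tbl1xr1 (-0.99), and both fell in +/- arrays too. The count of falls in this list was 2 to 10 over the alternatives, and 8 at an unadjusted p under 0.05. In the lysosome list 1 of 26 rose and 1 fell, and in the MHC class II list and among oxidative phosphorylation and TCA cycle genes 1 fell of 9 and of 27. For the lists of 26 and 27 genes these counts are near the shares over all genes, 3.69% up and 5.18% down. Those 4 genes were Mitf (0.80), Naglu (-0.71), Ifi30 (-0.50) and Idh1 (-1.38). Mitf lost its call without untreated 2, LPS 1 or LPS 2 (adjusted p up to 0.0666) and Naglu without untreated 1, untreated 3, LPS 2 or LPS 3 (up to 0.118). Ifi30 lost it without untreated 1, untreated 3 or LPS 1 (adjusted p up to 0.0952) and Idh1 without untreated 1, untreated 3, LPS 1 or LPS 2 (up to 0.0857). Cyclic loess also ended the call of Naglu (adjusted p = 0.0836). Limma called 0 of 17 cytosolic ribosomal protein genes, and 0 at an unadjusted p under 0.05, with responses from -0.19 to 0.13.

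The arrays also carry probe sets for microRNA genes, which read the primary or precursor transcript and not the mature strand. Of 296 such genes 4 rose and 1 fell in -/- arrays, and 20 rose and 9 fell in +/- arrays. Over all genes 3.69% rose and 5.18% fell in -/- arrays, and 9.59% and 15.5% did in +/- arrays. Each microRNA count was below the share over all genes. The mature sequences of the 4 that rose are given from RefSeq, GRCm38.p6, with the seed (bases 2 to 8) in capitals, to show that Mir221 and Mir222 share a seed. These genes were named after their values were seen.
miR-155-5p (chr16:84714143-84714165, plus strand): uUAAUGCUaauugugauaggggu
miR-221-3p (chrX:19146307-19146329, minus strand): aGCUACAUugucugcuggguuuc
miR-222-3p (chrX:19146901-19146923, minus strand): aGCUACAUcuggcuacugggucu
let-7e-5p (chr17:17830366-17830387, plus strand): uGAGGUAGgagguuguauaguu
Mir155, a microRNA that NF-kB induces in activated macrophages, went from 4.46, 4.59 and 4.49 to 6.91, 7.65 and 6.24 in -/- arrays, a 5.34-fold rise (2.42 ± 0.29, adjusted p = 0.000103). Its rise was 4.95 in +/- arrays, and the interaction was -2.53 ± 0.40 (adjusted p = 0.00713). Mir221 was at 6.35, 6.41 and 5.77 and then at 7.86, 7.96 and 7.78 (1.69 ± 0.28). Mir222, its neighbour on the X chromosome, was at 4.76, 5.07 and 4.83 and then at 6.18, 6.37 and 6.24 (1.38 ± 0.22). Both rose in +/- arrays as well, by 2.27 and 2.21, with no interaction call. The rise of Mirlet7e (0.75, adjusted p = 0.0484) lost its call in 13 of 23 alternatives, also when any -/- array but LPS 3 was left out (adjusted p of 0.0704 to 0.212) and without +/- untreated 1 (0.055), 2 (0.0551) or 3 (0.0524) or +/- LPS 2 (0.0577). The gene that fell was Mir103-2 (-0.70, adjusted p = 0.0347), which lost its call without untreated 2 (0.106), untreated 3 (0.136), LPS 1 (0.119) or LPS 3 (0.124).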

How the data were processed

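RNA of 12 macrophage samples was read on Affymetrix mouse gene arrays, 3 per genotype and treatment. The authors made log2 values for each probe set by RMA with the R package affy, per the submitters' processing notes, which name no version. Array quality filters and batch correction were looked for in the labels and not found there. RMA as usually run brings the probes of all arrays to a shared distribution, which can hide a global change in RNA per cell. Values were used as deposited, with no new normalization.

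Of 28193 probe sets, 21648 had 1 gene symbol in the platform annotation, 1313 had several and 5232 had none; 21553 were matched to RefSeq by gene ID, and 0 symbols changed. For the 954 genes with over 1 probe set, that with the highest mean signal was taken, which left 19945 genes. The median log2 signal per array was 5.19 to 5.37, and precision is limited by having 3 arrays per group. Group means of all 12 arrays were fitted with limma 3.58.1 in R 4.3.3 (lmFit, contrasts and eBayes), with Benjamini-Hochberg adjustment over all genes; the script was tested on simulated data. Python 3.11.15 (pandas 2.3.3, numpy 2.4.6, matplotlib 3.10.9) made the tables and plots.

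The comparison and the gene lists were chosen with earlier results of these data known. Of 809 list entries 734 were measured, and the other 75 had no row used here. The text names Hdac3, the 15 largest changes in each direction whose -/- groups do not overlap, and the 12 largest interactions of each sign. Those interactions were taken among genes called in the interaction and also in the LPS response of -/- or +/- arrays. Up to 4 called members of each list and 9 genes of the LPS response were added. Predicted genes and clone names were left out. A further 40 genes were chosen after their values were seen. Same-numbered -/- arrays did not all deviate together (correlations of 0.0898, 0.195 and -0.122), while +/- arrays did (0.243, 0.327 and 0.223). The numbers were therefore not taken as pairs in the -/- response. The +/- response and the interaction came from the same unpaired model, although differently numbered +/- arrays had correlations of -0.305 to 0.107. Its spread includes differences between +/- arrays of male and female pattern. With the replicate number as a block 107 interactions were more positive in place of 61. Alternatives were other normalizations, variance settings, array weights, a filter on dim genes, the mean of probe sets, a replicate block, the 6 -/- arrays alone, and each array left out.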

Additional observations from a re-analysis of the deposited data

Results flagged for a closer look

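The LPS response differed between the genotypes, by the interaction test of limma, for 52 of the named genes. The values given are the -/- minus the +/- response on the log2 scale. More positive in -/- arrays were Rtp4 (3.49), Cxcl10 (2.78), Oasl2 (2.05), Ints6l (1.99), Aph1b (1.86), Zfp931 (1.85) and Cnr2 (1.76). To these add H2-M2 (1.76), Insr (1.72), Impact (1.67), Zfp971 (1.65), Samd9l (1.64), Rhob (1.55), Ankrd37 (1.46), Stard4 (0.97) and Xaf1 (0.87). More negative in -/- arrays were Tnc (-4.36), Edn1 (-3.70), Il33 (-3.69), Lipg (-3.59), Cxcl11 (-3.44), Ifi214 (-3.31), Tnfsf10 (-3.12), Ccnd2 (-3.08), Gbp4 (-3.00), Il6 (-2.97), Mxd1 (-2.97) and Ifit3b (-2.80). Next in size were Iigp1 (-2.73), Dusp2 (-2.64), Mmp13 (-2.55), Mir155 (-2.53), Nos2 (-2.40), Cd69 (-2.38), Isg20 (-2.36), Il18 (-2.29), Hdc (-2.28), Il15 (-2.19), Tlr3 (-2.05) and Cd86 (-1.97). Smaller differences were those of Ifi205 (-1.87), Il13ra1 (-1.77), Nfxl1 (-1.71), Aim2 (-1.68), Mafk (-1.52), Rgs14 (-1.45), Klf6 (-1.39), Rapgef2 (-1.34), Tnfaip3 (-1.29), Irf2 (-1.19), Daxx (-1.12) and Rhoh (-0.95).

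Of these calls, some rested on single arrays and some on the processing. Oasl2 lost this call without any 1 of 8 arrays, untreated 1, or LPS 1 or 3, or +/- untreated 1, 2 or 3, or +/- LPS 2 or 3 (adjusted p up to 0.0963). Ints6l lost this call without any 1 of 3 arrays, untreated 1, or LPS 3, or +/- LPS 3 (adjusted p up to 0.058). Zfp931 lost this call without any 1 of 11 arrays, untreated 1, 2 or 3, or LPS 1, 2 or 3, or +/- untreated 1, 2 or 3, or +/- LPS 2 or 3 (adjusted p up to 0.135). Cnr2 lost this call without any 1 of 9 arrays, untreated 1, 2 or 3, or LPS 1 or 3, or +/- untreated 2 or 3, or +/- LPS 2 or 3 (adjusted p up to 0.101). Insr lost this call without any 1 of 8 arrays, untreated 1 or 2, or LPS 2 or 3, or +/- untreated 2 or 3, or +/- LPS 2 or 3 (adjusted p up to 0.0912). Il33 lost this call without any 1 of 8 arrays, untreated 1, 2 or 3, or LPS 2 or 3, or +/- untreated 1, 2 or 3 (adjusted p up to 0.116). Tnfaip3 lost this call without any 1 of 10 arrays, untreated 1 or 3, or LPS 1, 2 or 3, or +/- untreated 1, 2 or 3, or +/- LPS 2 or 3 (adjusted p up to 0.135). Nos2 lost this call without any 1 of 9 arrays, untreated 1, 2 or 3, or LPS 1, or +/- untreated 1, 2 or 3, or +/- LPS 2 or 3 (adjusted p up to 0.129). Cd69 lost this call without any 1 of 5 arrays, untreated 1 or 3, or LPS 1 or 3, or +/- LPS 3 (adjusted p up to 0.0837). Mmp13 lost this call without any 1 of 2 arrays, untreated 1, or LPS 3 (adjusted p up to 0.054). Mafk lost it without untreated 1 (adjusted p = 0.0546). Ifi205 lost this call without any 1 of 4 arrays, untreated 1 or 3, or LPS 1 or 3 (adjusted p up to 0.0835). Xaf1 lost this call without any 1 of 9 arrays, untreated 1 or 2, or LPS 1, 2 or 3, or +/- untreated 1 or 3, or +/- LPS 2 or 3 (adjusted p up to 0.116). Daxx lost this call without any 1 of 8 arrays, untreated 1 or 3, or LPS 1, 2 or 3, or +/- untreated 2 or 3, or +/- LPS 3 (adjusted p up to 0.112). Irf2 lost this call without any 1 of 10 arrays, untreated 1, 2 or 3, or LPS 1, 2 or 3, or +/- untreated 1 or 2, or +/- LPS 2 or 3 (adjusted p up to 0.0976). Ankrd37 lost this call without any 1 of 10 arrays, untreated 1, 2 or 3, or LPS 1 or 3, or +/- untreated 1 or 2, or +/- LPS 1, 2 or 3 (adjusted p up to 0.122). Rgs14 lost this call without any 1 of 5 arrays, untreated 1 or 3, or +/- untreated 3, or +/- LPS 2 or 3 (adjusted p up to 0.0896). Rhob lost this call without any 1 of 5 arrays, untreated 1, or LPS 1 or 2, or +/- untreated 1, or +/- LPS 3 (adjusted p up to 0.0727). Rhoh lost this call without any 1 of 10 arrays, untreated 1, 2 or 3, or LPS 1, 2 or 3, or +/- untreated 1, 2 or 3, or +/- LPS 3 (adjusted p up to 0.0976). Stard4 lost this call without any 1 of 8 arrays, untreated 1 or 2, or LPS 2 or 3, or +/- untreated 1, 2 or 3, or +/- LPS 3 (adjusted p up to 0.0916). With the replicate number as a block, Xaf1 (adjusted p = 0.0554) and Daxx (0.052) lost theirs too. Cyclic loess ended the calls of Oasl2, Zfp931, Nos2, Xaf1, Ankrd37, Rhoh and Stard4. Quantile normalization ended those of Aph1b (0.052), Zfp931, Insr, Nos2, Ifi205, Xaf1, Daxx, Ankrd37, Rhob and Stard4. Median centring ended those of Zfp931, Il33, Tnfaip3, Nos2, Xaf1, Ankrd37 and Rhoh. A variance trend ended those of Tnfaip3, Nos2, Xaf1, Irf2, Ankrd37 and Stard4. Robust variances ended those of Zfp931, Il33 and Nos2, and the mean of probe sets that of Insr. Leaving out both +/- arrays numbered 1, those with the male pattern, ended those of Oasl2, Il33, Tnfaip3, Nos2, Xaf1 and Irf2. It also ended those of Ankrd37, Rgs14, Rhob, Rhoh and Stard4. In that setting the adjusted p of these lost calls was 0.0564 (Il33) to 0.106 (Ankrd37).

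Outside the 19945 genes, 6545 probe sets had several gene symbols or none and entered no comparison. In the same fit over all 28193 probe sets 115 of them rose and 62 fell with LPS in -/- arrays, and they are not described further.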

How the results depend on the processing

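In 23 alternative settings no named response that was called changed sign. Of those that were not called, the -/- responses of Ifnb1 (-0.24 to 0.12), Aim2 (-0.011 to 0.23), Irf2 (-0.094 to 0.058) and Rhoh (-0.11 to 0.058) crossed 0. In all, 33 of 144 named -/- calls and 21 of 52 named interaction calls were lost in at least 1 of the settings that could give them. Array weights, which gave weights of 3.38 and 2.77 to untreated 1 and LPS 1 and 0.518 to 1.29 to the other 10 arrays, raised the -/- counts from 736 to 1800 genes that rose and from 1033 to 2624 that fell, the interaction from 61 to 270 more positive and from 155 to 322 more negative, and the share of repressed genes that fell in -/- arrays from 48.8% to 73.8%. Centring each array on its median left 37 more positive interactions, and leaving out both +/- arrays numbered 1 gave 110. With the replicate block 903 genes rose and 1361 fell in -/- arrays and 107 interactions were more positive, and of the named calls it ended the interactions of Xaf1 (adjusted p = 0.0554) and Daxx (0.052) and the -/- rise of Mirlet7e (0.0667). With 1 array left out, 521 to 790 genes rose and 576 to 1151 fell, and 19 to 174 interactions were more positive and 78 to 175 more negative. The share of repressed genes that fell in -/- arrays was then 33.6% to 56.2%. That of induced genes that rose was 49.4% to 61.9%. The cause of these shifts was not tested. Leaving out untreated 1 ended 27 of the named -/- calls, LPS 1 ended 25, and leaving out any +/- array 0 to 2. The number of arrays and the unknown depth of signal over background for dim genes limit what can be told apart.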
